A study of Mus musculus with 15 samples.

Results

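Described here are 10 genes of glutathione metabolism and of the Nrf2 stress response in a series of mouse mammary epithelial lines: the glutathione transferases Gsta3, Gsta4, Gstp1 and Gstm1, the glutathione enzymes Gsr, Gclc and Gclm, the stress enzymes Nqo1 and Hmox1, and Nfe2l2, which encodes Nrf2 itself. They were chosen by name: all 18 probe sets whose single gene symbol is one of these were taken, out of 18193 genes with a symbol on the Affymetrix array. RNA was measured in 5 lines with 3 arrays each. NMuMG is a wild-type, non-tumorigenic mouse mammary gland epithelial line that was never passaged in mice. E1KD is NMuMG with hnRNP E1, an RNA-binding protein encoded by Pcbp1, silenced, and is tumorigenic. M1P, L1P and L2P carry the same silencing and were taken back into culture from mice whose mammary fat pad had been injected: M1P from an E1KD tumour in the fat pad itself, passage 1, L1P from lungs after E1KD cells had been injected, passage 1, and L2P from lungs after L1P cells had been injected, passage 2. The hosts were NOD/SCID mice, which lack working T and B lymphocytes. No line with a control vector was compared, and each line is a single one. Separate cultures for the replicate arrays are not stated, so the p-values rest on a spread that may be purely technical.

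Glutathione is the main small thiol of the cell. Glutamate-cysteine ligase, made of the catalytic subunit Gclc and the modifier subunit Gclm, carries out the first and rate-limiting step of its synthesis. Glutathione transferases join it to reactive compounds, which are then exported, and glutathione reductase, Gsr, returns the oxidised form to the reduced one. Nrf2 is a transcription factor that is held by Keap1 and degraded in unstressed cells. When oxidants or electrophiles modify Keap1, Nrf2 enters the nucleus, pairs with small Maf proteins and binds antioxidant response elements of genes such as Nqo1, Gclc, Gclm, Hmox1 and several transferases.

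Values are the authors' log2 signals per probe set, where 1 unit is a doubling. An adjusted p is from limma's moderated test with Benjamini-Hochberg adjustment over all 18193 genes, and a gene is said to have risen or fallen where it is under 0.05. A log2 difference is followed by ± its standard error. Array medians lay between 4.17 and 4.26, and arrays of a line correlated at 0.979 or more except in M1P, where the lowest of the 3 correlations was 0.931. The 75th percentile of an array's signals was lowest in M1P array 1, at 6.33, followed by M1P array 2 (6.64), L2P array 1 and M1P array 3 (both 6.67), against 6.69 to 6.86 on the other arrays. M1P array 3 had the highest 75th percentile in M1P, though close to array 2. It also had the lowest signal of all arrays in the brightest Gstm1 probe set (4.45). Calls on M1P are also given with array 3 as its only array, which is not thereby taken as the truer one. The p-value of that comparison takes its spread entirely from the other lines and assumes that a lone M1P array varies as they do. The 3′ signal of Gapdh exceeded its 5′ signal by 0.19 to 0.45 log2 units on all arrays. For b-actin this difference was 0.64 to 0.77 in M1P, below all arrays of NMuMG (0.82 to 0.98) and L1P (0.80 to 0.97), and 0.77 to 0.93 in E1KD and 0.68 to 0.83 in L2P. Its part in the M1P results was not tested. Pcbp1 was at 12.57 to 12.76 in NMuMG and at 7.95 to 10.09 on the 12 arrays of silenced lines, as the labels state.

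The epithelial genes Krt8, Krt18, Krt19 and Cdh1 were high in every line, with means of 10.47 or more, while Epcam, Cldn3, Cldn4 and Esrp1 stayed at 2.46 to 5.57. Krt7 had a mean of 10.27 in NMuMG and of 4.17 to 4.81 in the silenced lines, and Elf3 of 6.89 against 5.72 to 6.14. Of the markers of other cells, Ptprc of leukocytes was at 2.46 to 2.63, Pecam1 of endothelium at 2.80 to 2.98, Col1a1 of fibroblasts at 3.36 to 3.65 and Sftpc of alveolar cells at 3.65 to 4.06. Per array, the mean of the 8 fibroblast markers ran from 3.58 to 4.33 in M1P. It was 3.35 to 3.46 in E1KD and 3.55 to 3.67 in NMuMG, and no fibroblast marker had a mean above 6. The mean of the 8 lung epithelial markers was 4.61 to 5.24 in M1P, 4.28 to 4.42 in E1KD and 4.42 to 4.52 in NMuMG. Foxj1 of ciliated cells was at 7.54 in M1P and 4.88 to 5.55 in the other lines, and Sftpb at 5.38 to 5.91 in all. The leukocyte genes Cd68 and Lyz2 were at 5.01 and 4.19 in E1KD, 5.65 and 5.03 in L1P, and 6.18 and 5.20 in L2P, and Csf1r at 4.78 to 5.34 over all lines. The part of other cells in the results on M1P, L1P and L2P was not tested.

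Across the 5 lines the 10 genes did not move together. By limma's F test 6 of them differed among lines, Gstp1, Gsr, Gsta4, Gsta3, Nfe2l2 and Gclc, when 31.8% of all genes did. Gstp1 had the lowest adjusted p (0.00163), followed by Gsr (0.00457), Gsta4 (0.0192), Gsta3 (0.0255), Nfe2l2 (0.0271) and Gclc (0.0381). Hmox1 (0.0588), Gstm1 (0.114), Gclm (0.262) and Nqo1 (0.53) did not pass. Without L2P array 3 only 3 of the 10 passed. The share of all genes that passed in that fit is not given here, so the lower count is not read as a result on these genes. The range of the 5 line means was widest for Gsta3, at 2.60 log2 units, followed by Hmox1 (1.46) and Gstm1 (1.23), and narrowest for Nqo1 (0.33). The median range of the 10 genes was 1.13 and that of all genes 0.55. These are not like sets, and ranges were not compared at a matched signal. The 10 were chosen with earlier results of these data known. The median signal of all probe sets was 4.19, below that of most of these genes. E1KD had the lowest mean of Gstp1 and Gsr and the highest of Gsta3 and Gstm1, while an in vivo passaged line had the highest mean of Gsta4, Gstp1, Gclc, Hmox1 and Nfe2l2.

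**Figure D1:**
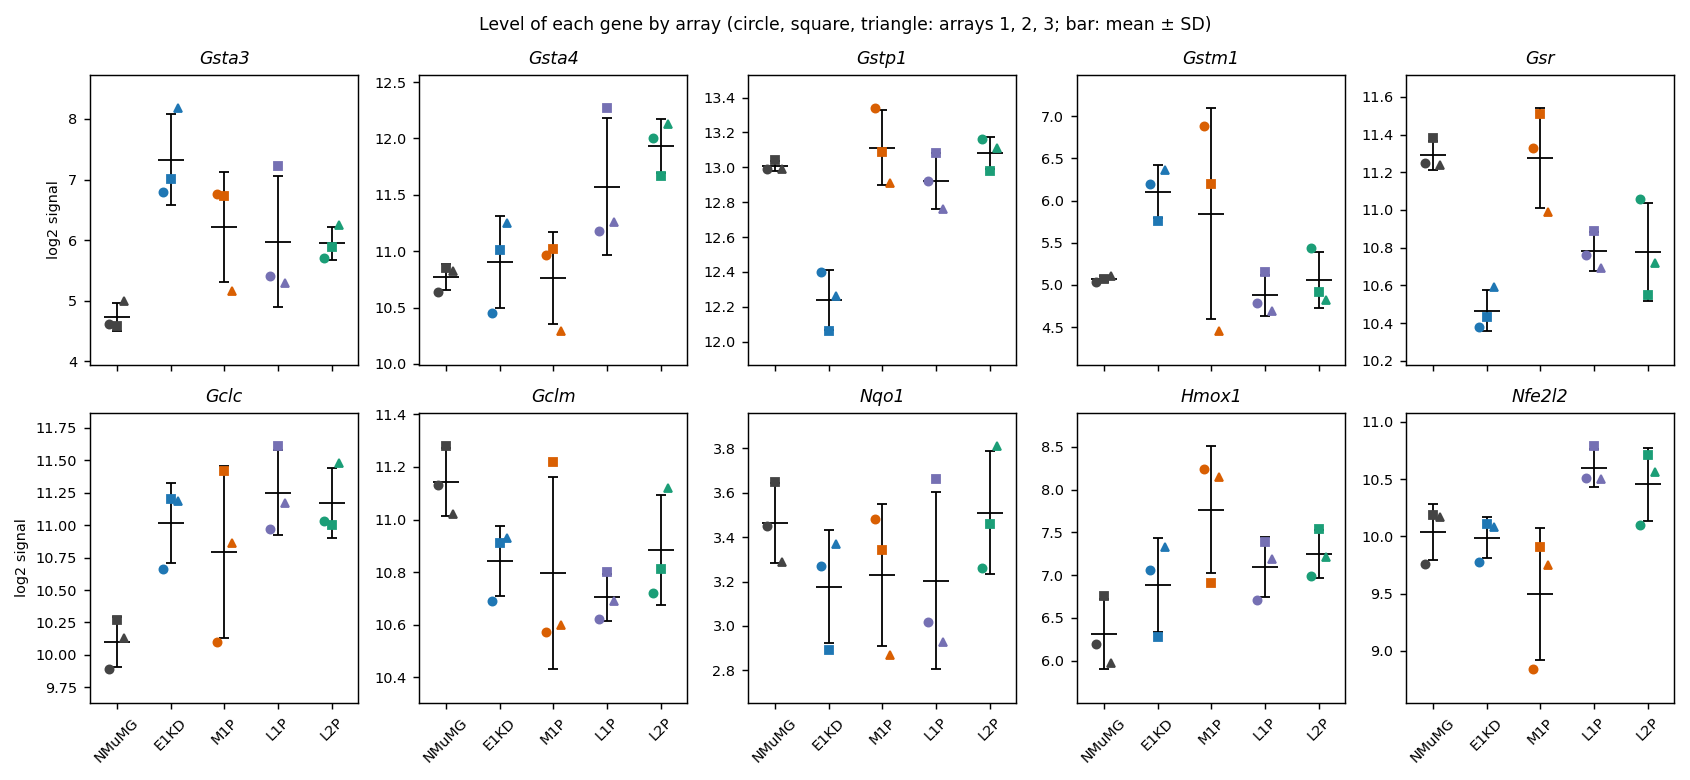
Log2 signal (vertical axes, each with its own scale) of the 10 genes on the 15 arrays, by line, from the probe set with the highest mean. Symbols are arrays and bars are the mean ± SD of 3 arrays. The 3 E1KD arrays of Gstp1 lie at 12.06 to 12.40, below all other arrays, and the 3 NMuMG arrays of Gsta3 at 4.58 to 5.00, below all other arrays.

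Gsta3, an alpha class glutathione transferase that in mouse acts on lipid peroxidation products and aflatoxin epoxide, showed the largest change. Its gene lies at chr1:21240565-21265575 (GRCm38.p6). NMuMG arrays gave log2 signals of 4.61, 4.58 and 5.00 and E1KD arrays 6.80, 7.01 and 8.18. M1P arrays gave 6.76, 6.73 and 5.16, L1P arrays 5.41, 7.23 and 5.29, and L2P arrays 5.71, 5.88 and 6.25. Every silenced array lay above every NMuMG array, and E1KD, M1P and L1P were each spread over more than 1 unit. From NMuMG to E1KD the gene rose 6.08-fold (2.60 ± 0.53, n = 3 arrays a line, adjusted p = 0.00686), when 3.00% of all genes rose. In bulk RNA more expressing cells and more RNA per cell cannot be told apart. The passaged lines lay between E1KD and NMuMG. They were below E1KD by 1.12 (M1P, adjusted p = 0.118), 1.36 (L1P, 0.334) and 1.38 log2 units (L2P, 0.263), and above NMuMG by 1.48 (M1P, 0.0908), 1.25 (L1P, 0.147) and 1.22 (L2P, 0.166), and none of these passed. M1P with NMuMG passed without M1P array 3 (2.01, adjusted p = 0.0119) or L1P array 2 (1.48, 0.0443), and was 0.43 with array 3 as the only M1P array (0.797). M1P was then below E1KD by 2.18 (log2 difference -2.18, 0.0799).

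A second Gsta3 probe set was much dimmer, with a median of 3.05 and 14 of 15 arrays below the array median, and followed the first with r = 0.89 over the 15 arrays. Its difference from NMuMG to E1KD was 1.18 ± 0.37 and did not pass over all probe sets (adjusted p = 0.0885). The call on Gsta3 therefore rests on the brighter probe set, which kept it under the other 24 of 25 alternatives.

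The start region of Gsta3 is shown because the gene had the largest change and its window holds an antioxidant response element core. RefSeq promoter windows of 300 bases, taken as 250 before and 50 after an annotated start, were at hand for 6 of the 10 genes (Gsta3, Gstp1, Gstm1, Gclm, Nqo1 and Nfe2l2, with 7 windows) and not for Gsta4, Gsr, Gclc and Hmox1. That start need not be the end of the gene span given here, and for Gsta3 and Gclm they differ. Both strands were searched for the core TGACNNNGC and for the AP-1 core TGANTCA, which can overlap it in sequence. The first was in 12.4% and the second in 7.8% of 32851 windows of that length. The first was found in the Gsta3, Gclm and Nfe2l2 windows and the second in the Gstp1 window only. No window held both, so an overlap of these cores could not be seen. A form of the first core with G in place of the C that follows TGA was not searched. In the Gstp1 window the AP-1 core TGAGTCA is followed by GC and so reads as that form. The search therefore does not show that this window lacks an antioxidant response element. A match is a description of the letters, not a bound site. In the Gsta3 window, chr1:21240335-21240634 on the + strand, the capitals mark the match at bases 130 to 138, and in the Gstp1 window, chr19:4037863-4038162 on the - strand, they mark the AP-1 core at bases 177 to 183.

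Gsta3: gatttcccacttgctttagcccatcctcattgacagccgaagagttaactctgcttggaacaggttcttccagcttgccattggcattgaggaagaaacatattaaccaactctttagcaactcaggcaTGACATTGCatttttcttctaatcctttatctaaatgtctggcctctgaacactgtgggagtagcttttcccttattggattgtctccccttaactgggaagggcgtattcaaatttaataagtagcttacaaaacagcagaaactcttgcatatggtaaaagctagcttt

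Gstp1: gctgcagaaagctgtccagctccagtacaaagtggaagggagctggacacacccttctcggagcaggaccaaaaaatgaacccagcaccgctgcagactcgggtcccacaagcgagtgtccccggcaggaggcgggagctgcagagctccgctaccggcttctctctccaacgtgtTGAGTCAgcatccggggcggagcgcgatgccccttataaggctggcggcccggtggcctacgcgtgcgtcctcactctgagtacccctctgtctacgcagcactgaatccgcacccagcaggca

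Gstp1, the pi class transferase that is abundant in many epithelia and tumours, was lowest in E1KD and near the NMuMG level in all passaged lines. The Gstp1 gene spans chr19:4035411-4037912. NMuMG arrays gave 12.99, 13.04 and 12.99 and E1KD arrays 12.40, 12.06 and 12.26. M1P arrays gave 13.34, 13.09 and 12.91, L1P arrays 12.92, 13.08 and 12.76, and L2P arrays 13.16, 12.98 and 13.11. The E1KD arrays lay below all others without overlap, and the other 4 lines overlapped. From NMuMG to E1KD Gstp1 fell 1.70-fold (-0.76 ± 0.13, n = 3, adjusted p = 0.00257), when 6.49% of all genes fell. It kept this call under all 24 alternatives, with adjusted p-values up to 0.0178.

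Against E1KD, Gstp1 rose 1.83-fold in M1P (0.87 ± 0.13, adjusted p = 0.00185), 1.60-fold in L1P (0.68 ± 0.13, 0.0147) and 1.79-fold in L2P (0.84 ± 0.13, 0.00233). These 3 comparisons share the E1KD arrays, as does the one with NMuMG. The share of all genes that rose was 17.7%, 1.19% and 2.14%. The L2P call held under all 24 alternatives (adjusted p up to 0.0163). The M1P call ended with only both lines in the model (0.0994) and with array weights (0.131), and with array 3 as the only M1P array the difference was 0.67 (0.0448). The L1P call ended without E1KD array 2 (0.0821) or 3 (0.0542), or L1P array 1 (0.061) or 2 (0.0862). Against NMuMG the passaged lines differed by 0.11 (M1P, adjusted p = 0.603, and -0.09 with array 3 alone, 0.836), -0.08 (L1P, 0.719) and 0.08 (L2P, 0.766). Mouse has near-identical pi class copies, and signal from these in the single Gstp1 probe set cannot be told apart.

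Gsta4, an alpha class transferase that acts on 4-hydroxynonenal, a product of lipid peroxidation, was highest in the lung lines. Its gene lies at chr9:78191966-78209349, close to Gclc on the same chromosome. NMuMG arrays gave 10.64, 10.85 and 10.82, E1KD arrays 10.45, 11.01 and 11.25, and M1P arrays 10.97, 11.02 and 10.29. L1P arrays gave 11.18, 12.27 and 11.26, and L2P arrays 12.00, 11.67 and 12.13. All L2P arrays lay above all arrays of NMuMG, E1KD and M1P, while L1P overlapped with E1KD. L2P was above NMuMG by 1.17 ± 0.29 (2.24-fold, n = 3, adjusted p = 0.016, a rise, with 5.56% of all genes) and above M1P by 1.18 ± 0.29 (2.26-fold, adjusted p = 0.0143, with 11.1% of all genes). The first call ended without NMuMG array 1 (0.0615) or L2P array 3 (0.0726). The second ended without L2P array 3 (0.0648), with only both lines in the model (0.108) and with array weights (0.185), and with array 3 as the only M1P array the difference was 1.64 (0.0279).

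L1P was above M1P in Gsta4 by 0.81 ± 0.29 (1.76-fold, adjusted p = 0.0433, a rise, with 13.6% of all genes), a call that 13 of 24 alternatives ended. With array 3 as the only M1P array the difference was 1.28 (0.0667). Among these, L1P array 2 alone moved the difference to 0.46 (0.169 without it) and M1P array 3 to 0.58 (0.113 without it). The call also ended without NMuMG array 1 (0.0539), 2 (0.0537) or 3 (0.0548), E1KD array 2 (0.054), M1P array 1 (0.0663), L1P array 3 (0.063), or L2P array 2 (0.0501) or 3 (0.0519). Against E1KD, Gsta4 was higher by 1.03 ± 0.29 in L2P, which did not pass (adjusted p = 0.0799), and passed without L1P array 2 (0.0271) or M1P array 3 (0.0444). In L1P it was higher by 0.67 (0.441).

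Gstm1, a mu class transferase, was dim in all lines: its brightest probe set had a median of 5.11, and the other 3 had medians of 3.82 to 4.19. Its gene lies at chr3:108012250-108017973. NMuMG arrays gave 5.03, 5.07 and 5.11, E1KD arrays 6.20, 5.76 and 6.36, and M1P arrays 6.88, 6.20 and 4.45. L1P arrays gave 4.79, 5.15 and 4.69, and L2P arrays 5.44, 4.92 and 4.82. E1KD lay above NMuMG, L1P and L2P without overlap, and M1P array 3 lay below every other array while M1P array 1 lay above every other. The differences did not pass: 1.04 ± 0.44 from NMuMG to E1KD (adjusted p = 0.191), and -1.23 and -1.05 from E1KD to L1P (0.257) and L2P (0.343).

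Whether these Gstm1 differences passed depended on the M1P arrays, which enter them only through the shared spread. With only both lines in the model E1KD was above NMuMG with adjusted p = 0.00369. L1P and L2P were then below E1KD with 0.00559 and 0.0355. Without M1P array 3 alone these adjusted p-values were 0.00703, 0.00562 and 0.0127. Without M1P array 3 the M1P differences were 1.47 with NMuMG (adjusted p = 0.0011), -1.67 for L1P with M1P (0.000379) and -1.48 for L2P with M1P (0.000837). With array 3 alone, the lowest of all 15, M1P was 1.65 below E1KD (log2 difference -1.65, adjusted p = 0.00658), a value that rests on 1 array of a line whose arrays run from 4.45 to 6.88. Over all probe sets, the other 3 Gstm1 probe sets had L1P below M1P by 0.61 to 1.12 log2 units (adjusted p = 0.0153 to 0.0287). For E1KD with NMuMG the same 3 gave -0.09 (0.829), 0.07 (0.879) and 0.56 (0.42). For L2P with E1KD they gave -0.04, -0.18 and -0.65 (0.657 to 1), and for L1P with E1KD -0.22, -0.29 and -0.95 (0.327 to 0.918). None of these passed. The probe set given last each time went the same way as the brightest one and followed it with r = 0.94. The others differed less between these lines, with r = 0.52 and 0.83. The brightest probe set has an identifier ending in x_at, which marks probes that can match other transcripts, and mu class genes are close in sequence.

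Gsr, glutathione reductase, was lower in E1KD than in NMuMG and M1P, with the lung lines between them. The Gsr gene spans chr8:33653238-33698162. NMuMG arrays gave 11.25, 11.38 and 11.24 and E1KD arrays 10.38, 10.43 and 10.59. M1P arrays gave 11.33, 11.51 and 10.99, L1P arrays 10.76, 10.89 and 10.69, and L2P arrays 11.06, 10.55 and 10.72. M1P overlapped with NMuMG and with L2P, and the L1P arrays lay between those of E1KD and those of NMuMG without overlap. From NMuMG to E1KD Gsr fell 1.77-fold (-0.82 ± 0.15, n = 3, adjusted p = 0.00383), a call that all 25 alternatives kept (up to 0.0213). Its second probe set gave -0.79 (adjusted p = 0.012 over all probe sets) and followed the first with r = 0.98.

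From E1KD to M1P Gsr rose 1.75-fold (0.81 ± 0.15, adjusted p = 0.00536), to a mean of 11.28 against 11.29 in NMuMG. With array 3 as the only M1P array this was 0.52 (adjusted p = 0.139), and the call also ended with only both lines in the model (0.113) and with array weights (0.258). L1P and L2P were below M1P by 0.50 each (adjusted p = 0.0265 and 0.0311), when 25.9% and 19.2% of all genes fell. Both differences were -0.21 with array 3 as the only M1P array (0.534 and 0.565). The L1P call ended without M1P array 1 (0.0744) or 2 (0.0777), or L1P array 1 (0.0619) or 3 (0.0908). The L2P call ended without M1P array 1 (0.0865) or 2 (0.0866), or L2P array 2 (0.131) or 3 (0.104).

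Against NMuMG, Gsr fell by 0.51 log2 units in L1P (adjusted p = 0.0409) and by 0.52 in L2P (0.0404), when 9.76% and 8.68% of all genes fell. Both calls were marginal. Leaving out any NMuMG or E1KD array ended the L1P call, with adjusted p-values of 0.0526 to 0.13, as did leaving out L1P array 1 (0.108), 2 (0.0628) or 3 (0.146), or L2P array 3 (0.0552). The L2P call ended without any one NMuMG, E1KD or L1P array (0.0515 to 0.131), and without L2P array 2 (0.187) or 3 (0.131). Gsr was higher in L1P and L2P than in E1KD by 0.31 each, which did not pass (adjusted p = 0.559 and 0.507).

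Gclc, the catalytic subunit of glutamate-cysteine ligase, was lowest in NMuMG. Its gene lies at chr9:77754535-77794489. NMuMG arrays gave 9.89, 10.27 and 10.13, E1KD arrays 10.66, 11.20 and 11.19, and M1P arrays 10.10, 11.42 and 10.86. L1P arrays gave 10.97, 11.61 and 11.17, and L2P arrays 11.03, 11.00 and 11.48. Only M1P array 1 among the silenced arrays fell within the NMuMG range. Against NMuMG, Gclc rose 2.22-fold in L1P (1.15 ± 0.29, n = 3, adjusted p = 0.0162, with 5.02% of all genes) and 2.10-fold in L2P (1.07 ± 0.29, 0.0236). The L1P call ended without NMuMG array 1 (0.0668) or L1P array 2 (0.0735), and the L2P call without NMuMG array 1 (0.0917) or 3 (0.0615) or L2P array 3 (0.11).

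In E1KD, Gclc was above NMuMG by 0.92 ± 0.29, or 1.89-fold, which misses the threshold (adjusted p = 0.0668). The call was made without M1P array 1 (0.0109) or 2 (0.0305), which enter this comparison only through the shared spread. M1P was above NMuMG by 0.69 (0.136), and by 1.04 without M1P array 1 (0.015) and 0.76 with array 3 as the only M1P array (0.145). The second probe set followed the first with r = 0.98 and gave 1.06 for L1P (adjusted p = 0.0283 over all probe sets) and 0.93 for L2P (0.0538). The passaged lines did not differ from E1KD past the threshold, at -0.22 (M1P), 0.23 (L1P) and 0.15 (L2P).

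Gclm, the modifier subunit of the same enzyme, lies at chr3:122245487-122267215 and did not pass in any of the 10 comparisons. NMuMG arrays gave 11.13, 11.28 and 11.02, E1KD arrays 10.69, 10.91 and 10.93, and M1P arrays 10.57, 11.22 and 10.60. L1P arrays gave 10.62, 10.80 and 10.69, and L2P arrays 10.72, 10.81 and 11.12. NMuMG lay above E1KD and L1P without overlap, the opposite order to Gclc, with differences of -0.30 ± 0.17 (E1KD with NMuMG, adjusted p = 0.347) and -0.44 ± 0.17 (L1P with NMuMG, 0.111). The L1P difference passed without M1P array 2 (0.0388), as did that of M1P with NMuMG (-0.56, 0.0279). A second Gclm probe set was dimmer and more variable, at 3.86 in M1P array 1, 5.89 in L2P array 1 and 6.44 to 8.49 on the other arrays. These are among the arrays with the lowest 75th percentiles, and their part in these values was not tested. This probe set followed the first with r = 0.31 only, and gave L1P above M1P by 2.02 when used for the gene (adjusted p = 0.0477), against -0.09 with the brighter one.

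**Figure D2:**
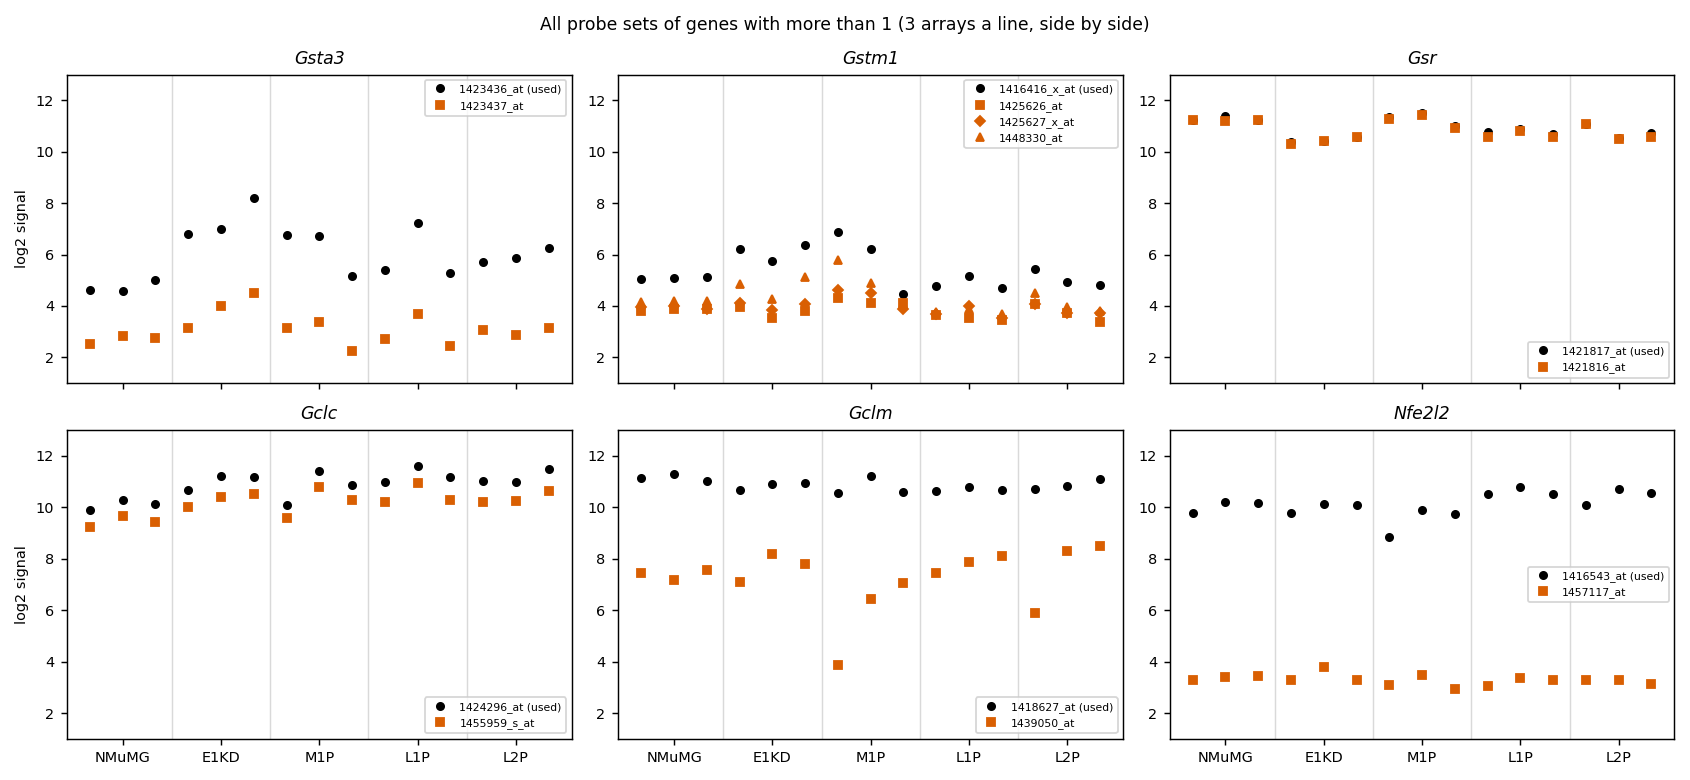
Log2 signal (vertical axes) of every probe set of the 6 genes with more than 1, over the 15 arrays grouped by line on the horizontal axes. Black points are the probe set that stands for the gene. Both probe sets of Gsr and of Gclc follow each other, while the dimmer one of Gclm drops to 3.86 in M1P array 1.

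Nqo1, a quinone reductase widely used as a readout of Nrf2 activity, gave no signal clearly above the low end of the array. Its gene lies at chr8:107388225-107403205. Its only probe set ran from 2.87 to 3.81 over the 15 arrays with a median of 3.34, below the array median on all 15 and between the 22.1 and 44.4 percentiles of all probe sets. NMuMG arrays gave 3.45, 3.65 and 3.29, E1KD arrays 3.27, 2.89 and 3.37, and L2P arrays 3.26, 3.46 and 3.81. No pair of lines lay apart, and adjusted p-values ran from 0.323 upward. Without detection calls a low level was not separated from none, and a difference at this level would be compressed.

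Hmox1, heme oxygenase, which breaks down heme and is induced by many stresses, lies at chr8:75093618-75100593 and was highest in M1P and lowest in NMuMG. NMuMG arrays gave 6.19, 6.76 and 5.97, E1KD arrays 7.06, 6.27 and 7.33, and M1P arrays 8.24, 6.91 and 8.15. L1P arrays gave 6.71, 7.39 and 7.19, and L2P arrays 6.99, 7.54 and 7.21. M1P and L2P lay above NMuMG without overlap, and M1P array 2 was more than 1 unit below both other M1P arrays. From NMuMG to M1P Hmox1 rose 2.75-fold (1.46 ± 0.36, n = 3, adjusted p = 0.0207), when 7.28% of all genes rose.

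The Hmox1 difference from NMuMG was 1.85 (0.0147) with array 3 as the only M1P array. The call ended without NMuMG array 1 (0.0687) or 3 (0.0954), without M1P array 1 (0.0679), with only both lines in the model (0.157) and with array weights (0.15). L2P was above NMuMG by 0.94 (adjusted p = 0.115, and 0.048 without M1P array 2) and L1P by 0.79 (0.178). M1P was above E1KD by 0.88 (0.0815), and by 1.31 without M1P array 2 (0.0165) and 1.27 with array 3 alone (0.0978). Without M1P array 2, L1P and L2P lay below M1P by 1.10 and 0.95 (log2 differences of -1.10 and -0.95, adjusted p = 0.0243 and 0.0455), against -0.67 (0.146) and -0.52 (0.263) with it.

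Nfe2l2, the gene of Nrf2, was higher in the lung lines than in the tumour line. The Nfe2l2 gene spans chr2:75675513-75704663. NMuMG arrays gave 9.76, 10.19 and 10.17, E1KD arrays 9.78, 10.11 and 10.08, and M1P arrays 8.84, 9.91 and 9.75. L1P arrays gave 10.51, 10.79 and 10.50, and L2P arrays 10.10, 10.71 and 10.56. L1P lay above NMuMG, E1KD and M1P without overlap, and NMuMG and E1KD overlapped. L1P was above M1P by 1.11 ± 0.25 (2.15-fold, n = 3, adjusted p = 0.00858) and L2P above M1P by 0.96 ± 0.25 (1.94-fold, 0.0183), both rises. With array 3 as the only M1P array these were 0.86 (0.0615) and 0.71 (0.117), and the L2P call also ended without M1P array 1 (0.63, 0.0527) or without L2P array 2 (0.0812) or 3 (0.0723). Both calls also ended with only both lines in the model (0.092 and 0.171) and with array weights (0.104 and 0.0774).

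Nfe2l2 did not differ between E1KD and NMuMG past the threshold (-0.05 ± 0.25, adjusted p = 0.941), and L1P was above E1KD by 0.61 (0.384) and above NMuMG by 0.56 (0.169, and 0.0338 without M1P array 1). Its second probe set stayed at 2.94 to 3.81, below the array median on all 15 arrays, and showed none of this (r = 0.16 with the first). Nrf2 is controlled mainly through its protein, which arrays of RNA do not measure.

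**Figure D3:**
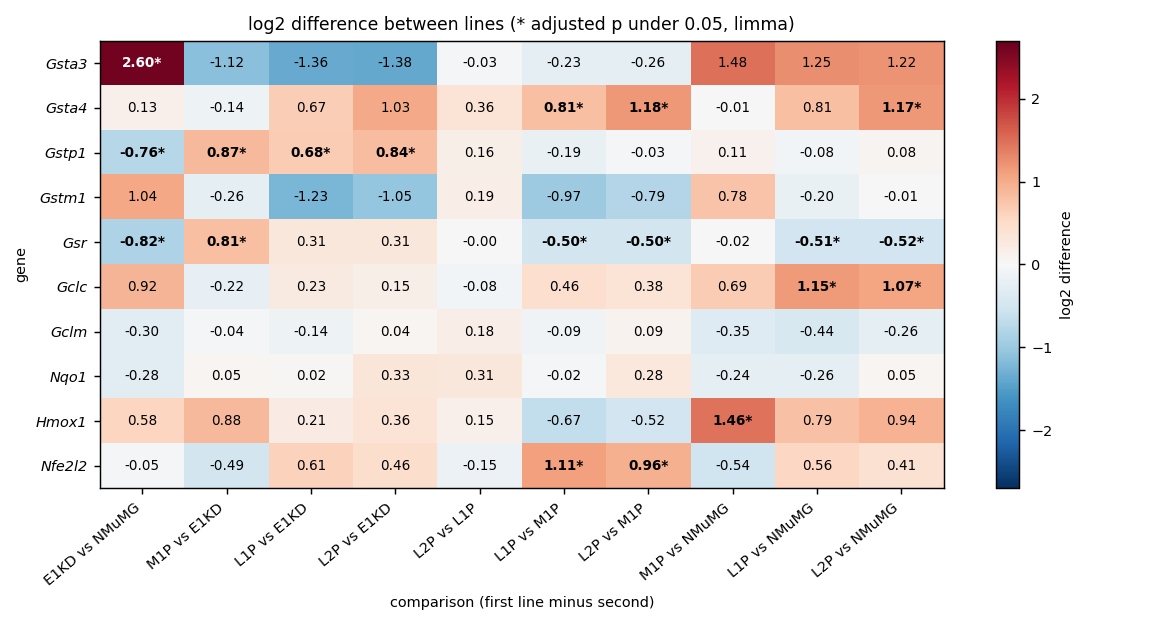
Log2 difference (colour and number) of each of the 10 genes (rows) in the 10 comparisons of lines (columns, first line minus second). Stars and bold type mark an adjusted p under 0.05. E1KD with NMuMG has 3 marked genes, Gsta3 up and Gstp1 and Gsr down, and L2P with L1P has 0.

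Counted over the 10 genes, 3 passed in E1KD with NMuMG, 1 up and 2 down, beside 9.49% of all genes. The median difference of the 10 was 0.04, and that of all genes -0.07. In M1P with E1KD 2 rose, Gstp1 and Gsr, beside 27.6% of all genes, and in L1P with E1KD and L2P with E1KD 1 rose, Gstp1, beside 2.48% and 3.78%. With array 3 alone the differences of M1P from E1KD were 0.67 in Gstp1, 0.52 in Gsr and -1.65 in Gstm1, the last from the single array at 4.45. L1P with M1P and L2P with M1P had 3 each, Gsta4 and Nfe2l2 up and Gsr down, beside 39.5% and 30.4% of all genes, which is no smaller a share than that of the 10. With array 3 as the only M1P array fewer of these genes passed in both comparisons, as did fewer of all genes. Against NMuMG 1 passed in M1P (11.8% of all genes), 2 in L1P (14.8%) and 3 in L2P (14.2%).

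L2P with L1P had 0 of 10 genes by limma at an adjusted p under 0.05, beside 0.143% of all genes. At an unadjusted p under 0.05 it also had 0, and all genes were not counted at that level. The largest difference between these lines was 0.36 ± 0.29, in Gsta4. In the order of the 5 line means, neighbouring lines differed past the threshold in 2 of 40 cases. These were L1P above E1KD in Gstp1 (0.68 ± 0.13, adjusted p = 0.0147) and M1P above L1P in Gsr (0.50 ± 0.15, adjusted p = 0.0265). The other steps did not pass, which does not show that neighbours were alike: the largest was L2P above NMuMG in Gsta3, at 1.22 ± 0.53 with no overlap of arrays. For Gstm1, Gclm and Nqo1 no pair of lines passed with the probe set used, so these calls give them no order. The other Gstm1 probe sets did have L1P below M1P, as given above.

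Genes were also counted in which all 3 arrays of one line lay above all 3 of the other. This held for 6 of the 10 genes in E1KD with NMuMG (36.0% of all genes), 3 in M1P with E1KD (40.2%), 4 in L1P with E1KD (23.8%) and 4 in L2P with E1KD (20.0%). It held for 0 in L2P with L1P (9.28%), 3 in L1P with M1P (49.6%) and 2 in L2P with M1P (32.9%). Against NMuMG it held for 2 in M1P (25.4%), 6 in L1P (45.8%) and 5 in L2P (33.3%). Those 6 in E1KD were Gsta3, Gstp1, Gstm1, Gsr, Gclc and Gclm.

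Around these 10 genes, 4 lists of related genes were measured: 18 other transferases, 18 genes of glutathione supply and use, 14 genes that control Nrf2 and 21 other Nrf2 targets. In E1KD with NMuMG 4 of these 71 genes rose and 9 fell, 18.3% of them beside 9.49% of all genes. In M1P with E1KD 17 rose and 5 fell, 31.0% beside 27.6% of all genes. In both L1P with E1KD and L2P with E1KD 3 rose and 3 fell, 8.45% beside 2.48% and 3.78%. In L2P with L1P 0 passed by limma, beside 0.143% of all genes. At an unadjusted p under 0.05 there were 4, and all genes were not counted at that level. L1P with M1P had 8 rises and 22 falls and L2P with M1P 9 and 16, 42.3% and 35.2% beside 39.5% and 30.4% of all genes. Against NMuMG 12 rose and 6 fell in M1P (25.4% beside 11.8%), 12 and 13 in L1P (35.2% beside 14.8%), and 15 and 13 in L2P (39.4% beside 14.2%). With all arrays in the fit, the shares in the comparisons of M1P with E1KD, L1P and L2P were thus near those of all genes. With array 3 as the only M1P array they were less so.

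The counts with M1P depended on its arrays. With array 3 alone, 1 rose and 4 fell in M1P with E1KD, 8 rose and 1 fell in L1P with M1P, 9 rose and 1 fell in L2P with M1P, and 6 rose and 4 fell in M1P with NMuMG. The shares of all genes were then 4.45%, 7.29%, 6.28% and 8.06%. Of the 12 genes that the naming rule took from M1P with E1KD, 9 lost their call, as did 4 of 12 in M1P with NMuMG.

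The counts in the comparisons without M1P also rose in this fit, through the shared spread. The shares of all genes that passed rose as well, so these counts are not read as results on the lists.

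Several of the genes named next had a mean near or below the array median in at least 1 line, as Nqo1 had. A log2 difference that involves such a mean is given without a fold, because a low level was not separated from none.

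**Figure D4:**
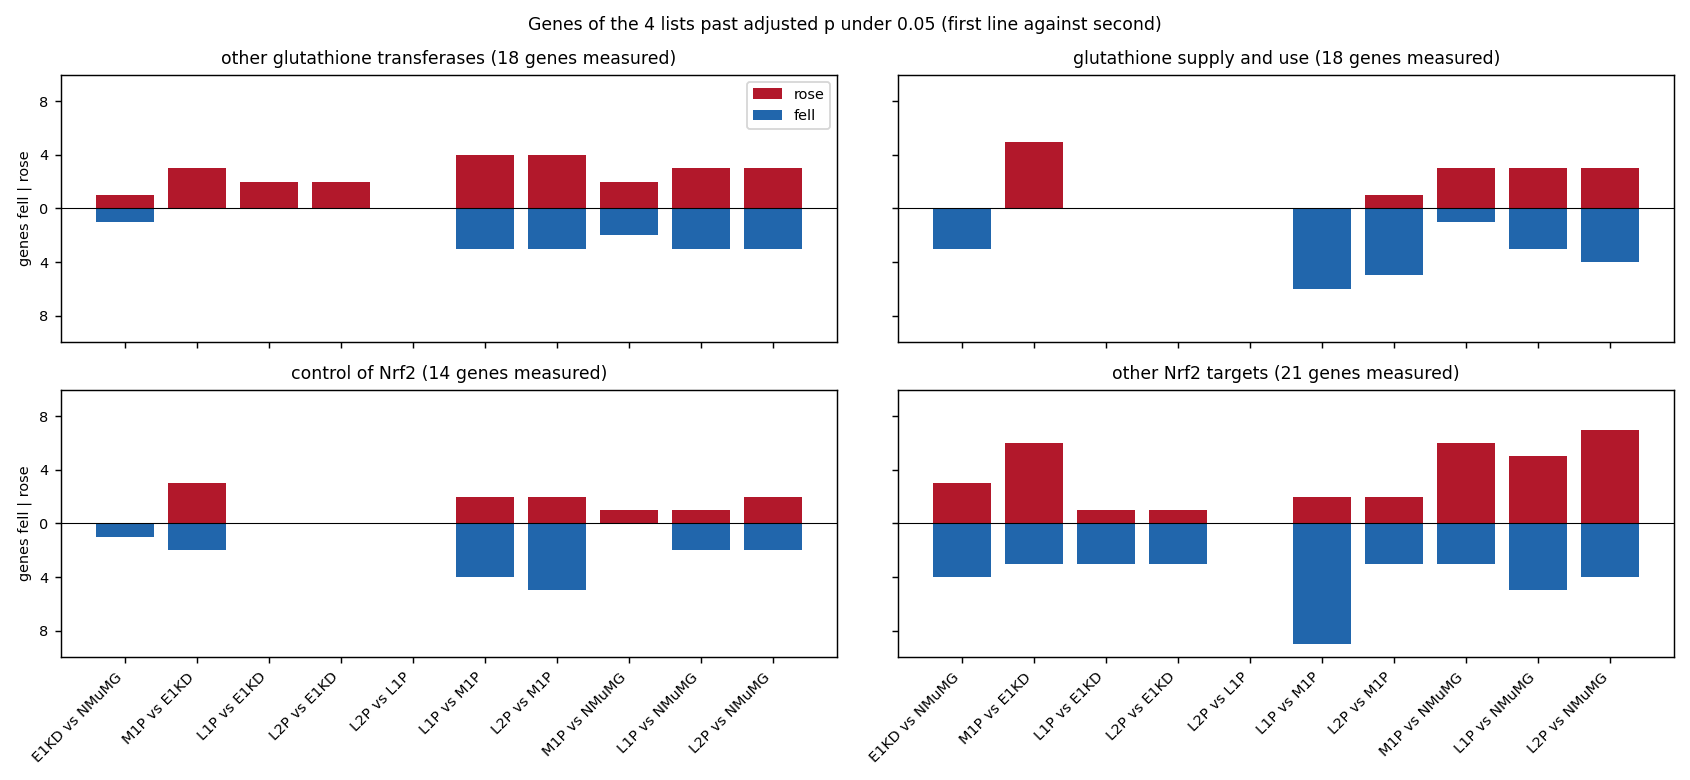
Number of genes of the 4 lists (vertical axes, rises above 0 and falls below) with an adjusted p under 0.05 in each of the 10 comparisons (horizontal axes). Against NMuMG the list of other Nrf2 targets has both rises and falls in each silenced line, 7 and 4 in L2P, and L2P with L1P has 0 in all lists.

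Among the 18 other transferases 1 rose and 1 fell from NMuMG to E1KD, when 3.00% of all genes rose and 6.49% fell. Gstk1, the kappa class enzyme, rose from a mean of 2.97 to 4.14 (1.18 ± 0.17, adjusted p = 0.000626), and Gstm5, of the mu class, fell 2.27-fold (-1.18 ± 0.18, 0.000757). Gstk1 rose further in L1P (0.97, adjusted p = 0.00647) and L2P (1.08, 0.00217) against E1KD, as did Mgst2, a microsomal transferase (0.85, 0.0147, and 1.07, 0.0022). The L1P call on Mgst2 ended without E1KD array 1 (0.067) or 2 (0.0804), or L1P array 1 (0.0591) or 2 (0.0721). Against NMuMG, Gstm2 rose by 2.54 log2 units in L1P (adjusted p = 0.00202) and 2.80 in L2P (0.000965) from a mean of 4.19, and Gsta2 5.04-fold in L2P (0.0131). Gsto2, of the omega class, fell by 2.21 log2 units in L1P, to a mean of 4.13, and by 1.79 in L2P, and Gstm5 fell 3.64-fold and 2.80-fold. In M1P, Mgst1 rose (1.29, adjusted p = 0.0275, and 0.0607 with array 3 as the only M1P array) and Gsto2 fell (-1.54, 0.0125, and -1.84 with 0.0276 with array 3 alone). The M1P call on Gsto2 ended with only both lines in the model (0.166) and with array weights (0.336), as did that on Mgst1 (0.0522 and 0.522). The Gsta2 call ended without NMuMG array 1 (0.0565), or L2P array 2 (0.0564) or 3 (0.0726), and the M1P call on Mgst1 without any one NMuMG array (0.0687 to 0.0859) or M1P array 2 (0.071).

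In glutathione supply and use 3 of 18 genes fell and 0 rose from NMuMG to E1KD, when 6.49% of all genes fell and 3.00% rose. Hagh, which releases glutathione from lactoylglutathione, fell 2.18-fold (-1.12 ± 0.19, adjusted p = 0.00193), and Ggct, an enzyme of glutathione breakdown, fell 1.80-fold (0.0152, but 0.0592 without NMuMG array 3 and 0.0819 without E1KD array 2). Hagh also fell against NMuMG in L1P and L2P, 2.50-fold and 2.25-fold (adjusted p = 0.000364 and 0.000865), and rose against E1KD in M1P (0.87, 0.00978, and 0.52 with 0.187 with array 3 alone). The M1P call on Hagh was also lost without E1KD array 2 (0.0511), with only both lines in the model (0.126) and with array weights (0.324). Slc7a11, the cystine transporter that supplies cysteine for glutathione, rose against NMuMG in L1P (1.42, adjusted p = 0.0188) and L2P (1.65, 0.00777). The L1P call on Slc7a11 ended without NMuMG array 2 (0.0654) or 3 (0.064), or L1P array 2 (0.0749). Gpx8, a peroxidase of the endoplasmic reticulum, rose against NMuMG by 2.34 log2 units in L1P and 2.79 in L2P (adjusted p = 0.00209 and 0.000557) from a mean of 4.38.

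Of the 14 genes that control Nrf2, Keap1 fell from NMuMG to E1KD (-0.81 ± 0.20, 1.75-fold, adjusted p = 0.0229) and 0 rose, when 6.49% of all genes fell and 3.00% rose. Its mean was 8.64 in NMuMG and 8.73 in M1P, against 7.83 (E1KD), 7.89 (L1P) and 7.94 (L2P), so that NMuMG and M1P had the highest means, as for Gsr. The E1KD call ended without NMuMG array 1 (0.0803) or 2 (0.0792), or E1KD array 1 (0.0515) or 2 (0.113), and with the Keap1 probe set of largest variance (0.149). Against E1KD, Keap1 rose in M1P (0.90, adjusted p = 0.0113), but with array 3 as the only M1P array the difference was 0.44. The call was lost without E1KD array 2 (0.0586), with only both lines in the model (0.134) and with array weights (0.273). Maff rose there too (0.80, 0.0386), while Gsk3b (-1.74, 0.0157) and Cul3 (-1.67, 0.0326) fell. With array 3 alone these differences were 0.43, -1.23 and -0.54. Each of these calls ended without E1KD array 2 (0.15, 0.0639 and 0.114) and with only both lines in the model (0.176, 0.151 and 0.175). Against NMuMG, Keap1 fell in L1P (-0.75, adjusted p = 0.0247) and L2P (-0.70, 0.0357), and with its probe set of largest variance these were 0.121 and 0.349. The L1P call also ended without NMuMG array 1 (0.0783) or 2 (0.0803), or L1P array 1 (0.0625) or 3 (0.104). The L2P call ended without any one NMuMG array (0.0629 to 0.107), without L1P array 1 (0.0513), and without L2P array 2 (0.143) or 3 (0.142). In the lung lines 0 of the 14 genes passed against E1KD by limma, beside 2.48% (L1P) and 3.78% (L2P) of all genes. At an unadjusted p under 0.05 there were 1 (L1P) and 3 (L2P), and all genes were not counted at that level. Btrc fell against NMuMG in L1P (-0.79, adjusted p = 0.0119) and L2P (-0.78, 0.0135), to means of 4.22 and 4.24, near the array median. Both Btrc calls ended without NMuMG array 2 (0.0611 and 0.0686), among other settings. Against NMuMG, Nfe2l1, a relative of Nrf2 that controls proteasome genes, rose in L1P (1.05, adjusted p = 0.0131) and L2P (1.03, 0.0145). Those calls ended without NMuMG array 3 (0.0507 and 0.056) and without L1P array 2 (0.0638) or L2P array 2 (0.0571). Mafg, a small Maf partner, rose in L2P (0.92, adjusted p = 0.00972, and 0.0591 with its probe set of largest variance), and Mafk in M1P (1.04, 0.00227, and 0.89 with 0.0258 with array 3 alone). The Mafk call ended with only both lines in the model (0.0711) and with array weights (0.0728).

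Among the 21 other Nrf2 targets the largest differences went both ways. Ptgr1, a reductase of prostaglandins and lipid aldehydes, fell 5.73-fold from NMuMG to E1KD (-2.52 ± 0.31, adjusted p = 0.000199). Its mean was 7.47 in NMuMG and 4.95 in E1KD. In M1P, L1P and L2P its means were 3.44, 3.06 and 3.15, below the array median, and it fell against NMuMG in each (adjusted p = 2.71e-06, 8.85e-07 and 9.06e-07, and 1.66e-05 for M1P with array 3 alone). Blvrb, biliverdin reductase B, fell 4.91-fold in E1KD (0.000664), 8.20-fold in L1P and 6.37-fold in L2P. Aldh3a1, an aldehyde dehydrogenase, rose against NMuMG in all passaged lines, 11.5-fold in M1P (log2 difference 3.52, adjusted p = 0.00192, and 1.97 with 0.0783 with array 3 alone), 7.43-fold in L1P (0.00522) and 13.1-fold in L2P (0.000885). The M1P call on Aldh3a1 also ended with only both lines in the model (0.0522) and with array weights (0.307). Abcc2, a transporter that exports glutathione conjugates, rose from a mean of 4.10 to 6.41 in E1KD (2.31 ± 0.29, adjusted p = 0.000189). Against E1KD it fell by 2.25 log2 units in the tumour line (adjusted p = 0.00052, 0.0109 with array 3 alone and 0.0733 with array weights), and by 2.56 (L1P, 0.000204) and 2.67 (L2P, 0.000101) in the lung lines. Its means in these 3 lines were 3.74 to 4.17, near the array median. All 4 comparisons share the E1KD arrays. Abcc4, a related exporter, rose against E1KD in L1P (1.30, 0.00978) and L2P (1.04, 0.0281). The L1P call on Abcc4 ended without E1KD array 2 (0.0575) or L1P array 1 (0.0599), and the L2P call without any one E1KD or L2P array (0.0617 to 0.14).

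Of all genes, Efemp1 (r = 0.88), Aqp9 (0.86) and Amacr (0.85) had the pattern most like Gsta3 over the 15 arrays by Pearson correlation, and Efemp1 was dim, at 2.43 to 4.11. For Hmox1 these were Bst2 (0.85), Inhbc (0.85) and Cdpf1 (0.83), and for Gstm1 Otud3 (0.92), Slc25a5 (0.92) and Spg7 (0.91). The 15 arrays are 5 lines with 3 arrays each and share whatever sets one array apart, so these values describe likeness only.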

How the data were processed

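RNA was hybridised to Affymetrix mouse arrays, 3 arrays for each of 5 lines. The table the authors deposited holds 1 log2 signal per probe set and array. Affymetrix Expression Console, MAS5 and RMA are named per the submitters' processing notes, but which of them made the deposited values, and in which version, is not given in the sources used. The log2 scale was taken from the values, and they were not normalised again. Arrays report relative signal, and the number of arrays limits the precision.

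Of 45101 probe sets, 64 are controls, 34945 have 1 gene symbol, 932 several and 9160 none in the platform annotation. Symbols were updated through Entrez identifiers for 34741 and kept for 204. The probe set with the highest mean stood for each of 18193 genes. limma 3.58.1 in R 4.3.3 was fitted with 1 coefficient per line over all 15 arrays (10 residual and 2.98 prior degrees of freedom), and 10 pairwise comparisons and an F test over lines were adjusted by Benjamini-Hochberg over all genes, with calls at an adjusted p under 0.05. A separate fit covered all probe sets outside the controls. The fit was tested on simulated data. Gene positions and promoter windows are those of RefSeq for GRCm38.p6.

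The 10 genes and the gene lists were chosen with earlier results of these data known. From each list and each comparison with E1KD or NMuMG as base, up to 2 of the largest rises and 2 of the largest falls that passed could be named, with the 3 genes most like each of the 3 widest-ranging members. Alternatives were another normalisation, centring, a signal minimum of 6, another probe set, other variance models, a replicate block and each array left out. For genes named from the lists, and for the counts over all 4 lists with array 3 as the only M1P array, these were chosen after seeing the data.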

Additional observations from a re-analysis of the deposited data

How the results depend on the processing

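Over the 10 genes and 10 comparisons, 2301 of 2460 alternative values kept their side of the threshold, 114 of them with the other sign while neither was called. Of the others 91 lost a call, 67 gained one and 1 reversed: Gclm in L1P with M1P, where the more variable probe set gave 2.02. With only both compared lines in the model, the number of the 10 genes passing was 5 in E1KD with NMuMG, 0 in M1P with E1KD, 3 in L1P with E1KD and L2P with E1KD, 0 in L1P with M1P, L2P with M1P and M1P with NMuMG, and 5 in L1P with NMuMG. With array weights, whose fit stopped before it converged, these counts were 6, 0, 4, 5, 0, 0, 0 and 6, and 6 in L2P with NMuMG. With array 3 as the only M1P array several of them moved too, as did the share of all genes that passed. The cause was not tested. The counts in this section stand without the share of all genes under the same setting. They therefore do not set the 10 genes apart from other genes. Leaving out 1 array at a time gave 3 to 4 genes in E1KD with NMuMG, 2 to 3 in M1P with E1KD, 0 to 2 in L1P with E1KD, 1 to 3 in L2P with E1KD, 1 to 4 in L1P with M1P, 0 to 4 in L2P with M1P, 0 to 3 in M1P with NMuMG and in L1P with NMuMG, 0 to 4 in L2P with NMuMG, 0 in L2P with L1P and 3 to 7 by the F test. Arrays with the same number did not deviate together in every pair (r = -0.496 to 0.755 over 30 pairs), so the numbers were not taken to pair the samples. With the replicate number as a block, 3 genes passed in M1P with NMuMG in place of 1, and the other counts stayed within 1.5 times.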
